A study of Mus musculus with 10 samples.

Results

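The genes described here are 10 transcripts by which cortical interneurons and neuropeptide neurons are usually recognised: Gad1 and Gad2, Pvalb, and the peptide precursors Sst, Npy, Vip, Cck, Penk, Tac1 and Crh. They were chosen by symbol from the 24421 different gene symbols of the count tables; all 10 were found, each on a single line, and all 10 passed the filter that kept 18727 genes for testing. Total RNA had been sequenced from the microglia fraction of the cortex of 9-month-old mice, in 3 groups: WT (n = 3 libraries), APP/PS1 (n = 4) and APP/PS1+N-AS, which had received the compound N-AS (n = 3), with 2 mice pooled in each library. APP/PS1 mice carry transgenes for human APP with the Swedish mutation and for mutant presenilin 1, and develop amyloid-β deposits; the promoters that drive the transgenes are not given in the sources used here. N-AS is N-acetyl sphingosine, injected under the skin once a day, 30 mg/kg each time, over 8 weeks starting at the age of 7 months. The APP/PS1+N-AS group shared the genotype of APP/PS1 and had received this compound. The study's scheme names injection of either N-AS or vehicle for APP/PS1 mice. The groups differed also in Xist reads, given below. The cells were papain-dissociated cortex separated on a density gradient, without a sort for a surface marker.

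Interneurons are the neurons of the cortex that release GABA onto nearby cells. GABA is made from glutamate by glutamate decarboxylase, of which Gad1 encodes the GAD67 form, found throughout the cell, and Gad2 the GAD65 form, enriched at nerve terminals. Classes of interneurons are told apart by what else they make: the calcium-binding protein parvalbumin in fast-spiking cells, somatostatin in cells that contact dendrites, and VIP in cells that mainly contact other interneurons. Npy, Cck, Penk, Tac1 and Crh are made by subsets of these cells and also by other neurons, Cck and Crh among cortical neurons and Penk and Tac1 most strongly by projection neurons of the striatum. All 7 peptides are cut from precursors and packed in dense-core vesicles, and act on G-protein-coupled receptors. None of the 10 genes is a marker of microglia, so the reads on them measured neuronal RNA, or low expression by other cells, in the fraction. In such bulk samples, fewer cells of a type and less RNA per cell cannot be told apart.

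The libraries held 8805804 to 19432075 counted reads, and 606 to 4025 of the listed lines were at 0 in a library. Levels are given as CPM, read counts scaled to library size by the TMM method. The fraction carried RNA of several cell types. The summed level of 14 microglia markers was 851 to 1255 CPM in WT, 2744 to 3451 CPM in APP/PS1 and 1677 to 2190 CPM in APP/PS1+N-AS libraries, and that of 12 pan-neuronal markers (Snap25, Syt1, Rbfox3 and others) was 1709 to 5628 CPM in WT, 2240 to 2648 CPM in APP/PS1 and 2322 to 3244 CPM in APP/PS1+N-AS libraries. None of the markers in these lists was at 0 in all 10 libraries. Xist, the transcript of the inactive X chromosome, had 33 to 37 reads in the WT libraries, 5253 to 11188 reads in the APP/PS1 libraries, and 7024, 8848 and 29 reads in the APP/PS1+N-AS libraries, although the study's methods name male mice only. The Xist level and the genotype therefore cannot be told apart between WT and APP/PS1.

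The third WT library stood apart for the genes described here. It was the highest of all 10 libraries for each of the 10 genes, at 1.53 times the mean of the other WT libraries for Crh and 6.23 times for Pvalb. Its level was 3.36 times that mean for Gad1, 1.91 times for Gad2, 3.56 times for Sst, 4.08 times for Npy, 2.62 times for Vip, 4.17 times for Cck, 2.63 times for Penk and 4.82 times for Tac1. On the log2 scale the median difference was 1.78 over the 10 genes and −0.08 over all genes tested, and 8 of the 10 genes exceeded a log2 difference of 1, as did 4.58% of all genes tested. The pan-neuronal markers moved with them, with a median log2 difference of 1.45 and 9 of 12 markers past 1, while the glutamatergic cortical neuron markers had a median of 0.40 and 4 of 14 past 1. Choroid plexus markers, with 91.8% of their sum from Ttr, summed to 18.6 CPM in this library, where the highest WT sum was 421 CPM. The third APP/PS1+N-AS library was also low for them, at 21.2 CPM. Oligodendrocyte markers had a median log2 difference of −1.34 in the third WT library. The part of these differences in the high levels was not tested. Comparisons with WT are therefore given with and without this library.

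**Figure D1:**
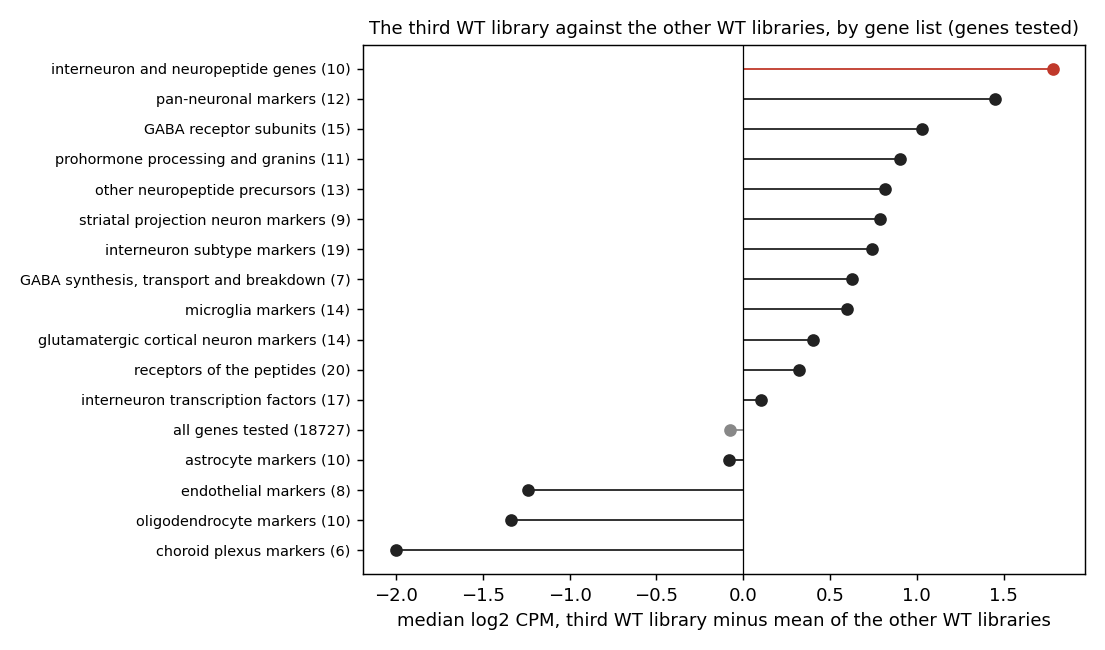
Median log2 CPM of the third WT library minus the mean of the other WT libraries (x axis) for each gene list, with the number of genes tested in brackets; the red point is the 10 interneuron and neuropeptide genes and the grey point all genes tested. The 10 genes have the highest median, 1.78, followed by the pan-neuronal markers at 1.45, and the choroid plexus markers have the lowest.

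Gad1 and Gad2, the genes of GABA synthesis, had 355 to 3028 and 1123 to 5071 reads in a library. Gad1 (chr2:70553072-70602014, plus strand, GRCm38) was 42.2, 44.8 and 146 CPM in WT, 58.1, 56.9, 68.6 and 87.0 CPM in APP/PS1, and 37.8, 42.8 and 63.5 CPM in APP/PS1+N-AS libraries. The groups overlapped, and the highest value by far was the third WT library, from which the WT mean was 77.7 ± 59.2 CPM (SD, n = 3) against 67.6 ± 14.0 CPM in APP/PS1 (SD, n = 4) and 48.0 ± 13.7 CPM in APP/PS1+N-AS (SD, n = 3). In the annotation, Gad1 overlaps Gad1os on the other strand; the strand setting of the counting is not given in the sources used here, so reads of these 2 genes cannot be told apart. Gad2 (chr2:22622205-22693874, plus strand) was 133, 123 and 244 CPM in WT, 108, 111, 120.4 and 171 CPM in APP/PS1, and 133, 127 and 127 CPM in APP/PS1+N-AS libraries. Gad2 varied least of the 10 genes: without the third WT library its highest level was 1.59 times its lowest.

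The balance of the GAD genes differed between libraries. The ratio of Gad2 to Gad1 reads was 3.16, 2.75 and 1.67 in WT, 1.85, 1.95, 1.76 and 1.96 in APP/PS1, and 3.53, 2.97 and 2.00 in APP/PS1+N-AS libraries. Every APP/PS1+N-AS library lay above every APP/PS1 library, the nearest at 2.00 and 1.96, and the WT libraries spanned both. In WT and APP/PS1+N-AS the third library had the lowest ratio. The ratios of Cck, Npy, Penk and Pvalb to Sst overlapped between APP/PS1+N-AS and APP/PS1. Of single genes, 12.7% had groups that did not overlap in this comparison, and the share over other ratios was not determined. These ratios are a description and were not tested.

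Pvalb (chr15:78191114-78206400, minus strand) encodes parvalbumin, the calcium buffer of fast-spiking interneurons, and had few reads, 6 to 126 in a library. Its level was 0.713, 1.24 and 6.07 CPM in WT, 2.50, 2.07, 3.01 and 3.57 CPM in APP/PS1, and 1.25, 1.54 and 5.10 CPM in APP/PS1+N-AS libraries. The third WT and the third APP/PS1+N-AS library were the highest, and the groups overlapped. Because 6 to 126 reads lie behind these values, counting error alone is a large part of their spread at the low end.

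**Figure D2:**
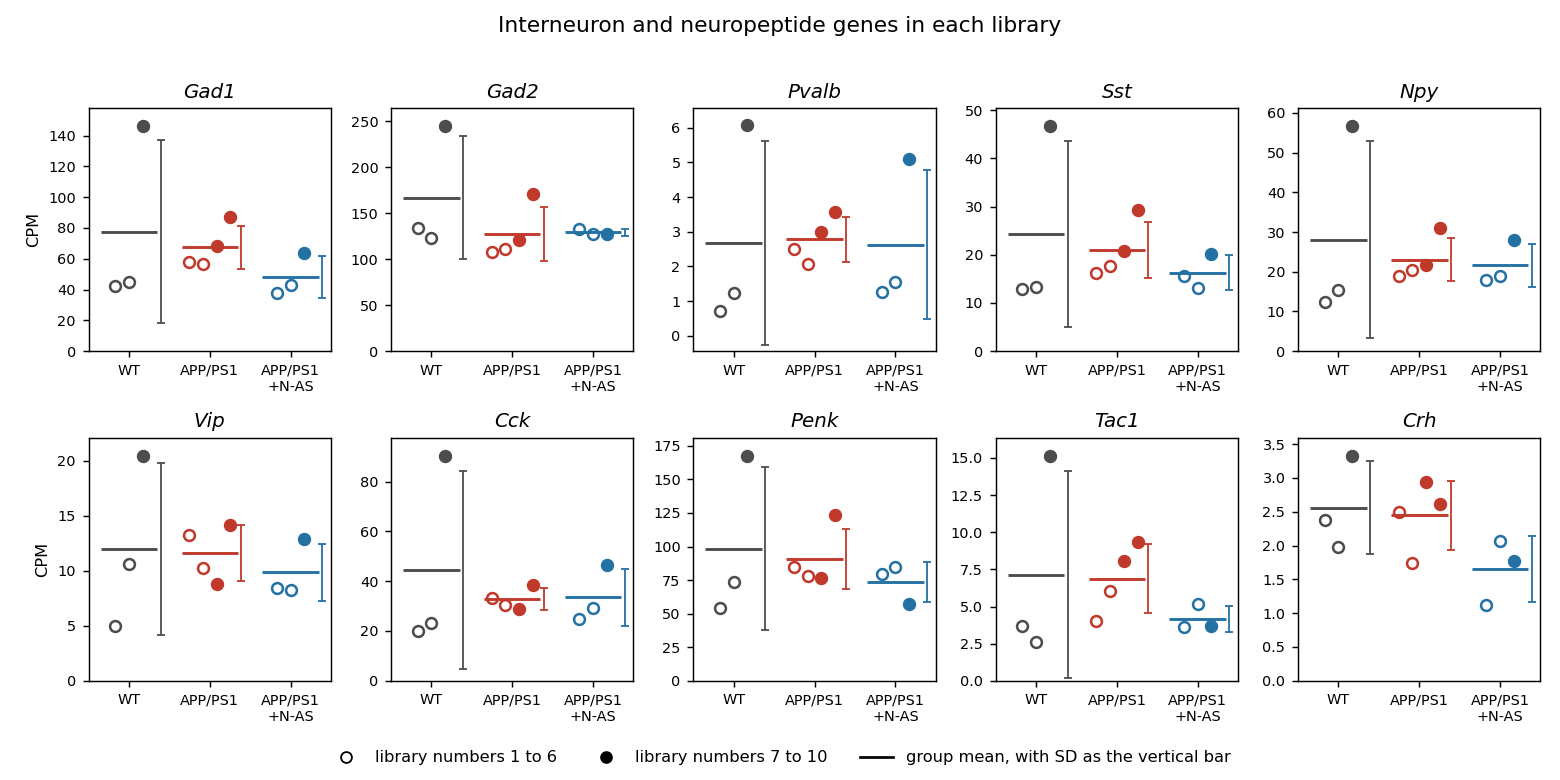
CPM (y axis, from 0, or below 0 where the SD bar of Pvalb reaches there) of each gene in each library, by group; points are libraries, open for library numbers 1 to 6 and filled for 7 to 10, horizontal lines are group means and vertical bars the SD. The third WT library is the highest point for all 10 genes, for example 146 CPM for Gad1 where the other 9 libraries lie between 37.8 and 87.0 CPM.

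Somatostatin and neuropeptide Y, which are made together by a part of the dendrite-targeting interneurons, had similar profiles. Sst (chr16:23889573-23890958, minus strand) was 12.8, 13.4 and 46.6 CPM in WT, 16.2, 17.6, 20.8 and 29.3 CPM in APP/PS1, and 15.5, 13.1 and 20.2 CPM in APP/PS1+N-AS libraries. Npy (chr6:49822710-49829507, plus strand) was 12.4, 15.4 and 56.6 CPM in WT, 19.0, 20.4, 21.7 and 30.9 CPM in APP/PS1, and 18.0, 19.0 and 27.9 CPM in APP/PS1+N-AS libraries. For both genes the first 2 WT libraries were below all 4 APP/PS1 libraries and the third WT library above them. The ratio of Npy to Sst reads lay between 0.963 and 1.44 over the 10 libraries.

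Vip (chr10:5639218-5647617, plus strand), the precursor of vasoactive intestinal peptide, was 4.99, 10.6 and 20.4 CPM in WT, 13.3, 10.2, 8.81 and 14.2 CPM in APP/PS1, and 8.43, 8.27 and 12.9 CPM in APP/PS1+N-AS libraries. Cck (chr9:121489824-121495694, minus strand), the precursor of cholecystokinin, was 20.1, 23.3 and 90.4 CPM in WT, 33.4, 30.2, 29.0 and 38.7 CPM in APP/PS1, and 24.8, 29.3 and 46.5 CPM in APP/PS1+N-AS libraries. For Cck the highest values after the third WT library came from the third APP/PS1+N-AS library, and the groups overlapped for both genes.

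Penk (chr4:4133531-4138819, minus strand), the precursor of the enkephalins, was 54.1, 73.5 and 167 CPM in WT, 84.8, 77.8, 76.7 and 123 CPM in APP/PS1, and 79.3, 84.8 and 57.0 CPM in APP/PS1+N-AS libraries. Tac1 (chr6:7554879-7565834, plus strand), the precursor of substance P and neurokinin A, was 3.68, 2.60 and 15.1 CPM in WT, 4.06, 6.03, 8.06 and 9.33 CPM in APP/PS1, and 3.62, 5.20 and 3.69 CPM in APP/PS1+N-AS libraries. These genes did not share the high values of the third APP/PS1+N-AS library that Pvalb and Cck had. In that library 9 markers of striatal projection neurons summed to 1109 CPM, the lowest of the 10. Rarb made up 73.9% of this sum over all libraries. The third WT library, with the highest Penk and Tac1 levels, had a sum of 1190 CPM. Whether these sums bear on Penk and Tac1 was not tested. Penk overlaps A830012C17Rik on the other strand, so its reads carry the same limit as those of Gad1.

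Crh (chr3:19693401-19695396, minus strand), the precursor of corticotropin-releasing hormone, had 17 to 69 reads in a library. It was 2.38, 1.98 and 3.33 CPM in WT, 2.50, 1.74, 2.94 and 2.62 CPM in APP/PS1, and 1.12, 2.07 and 1.77 CPM in APP/PS1+N-AS libraries. The third WT library was 1.53 times the mean of the other WT libraries, the smallest excess of the 10 genes, and 1.13 times the next highest library.

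Levels of different genes were compared per kilobase of merged exons. By the median over the 10 libraries the order was Penk at 48.1 CPM per kb, Npy at 34.8, Sst at 23.5, Cck at 22.8, Gad2 at 21.6, Gad1 at 7.52, Vip at 3.06, Pvalb at 2.19, Crh at 1.68 and Tac1 at 1.36 CPM per kb. Npy was above Sst, Gad2 above Gad1 and Gad1 above Vip in all 10 libraries, and Penk was above Npy in 9 of 10. Sst and Cck were not separated, with Sst the higher in 6 of 10 libraries, and neither were Crh and Tac1, with Crh the higher in 5 of 10. Gad2 also had more reads than Gad1 in every library, at 1.67 to 3.53 times, so this order does not rest on length. The size of the fall per kilobase depends also on merged exon lengths of 7639 bases for Gad1 and 5876 for Gad2, which join all annotated isoforms.

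The promoters of these genes were searched for a letter motif. Expression of Sst, Vip, Penk, Tac1 and Crh is known to respond to cyclic AMP through the CRE-binding protein, CREB, whose full site is TGACGTCA and whose short sites are TGACG and, on the other strand, CGTCA; the full site holds both short sites and overlaps them. RefSeq promoters of GRCm38.p6, from 250 bases before to 50 bases after the start of transcription, were held for 8 of the 10 genes, with 2 promoters for Pvalb; Penk and Crh were not searched. The sites found are shown here with 30 bases each, 5′ to 3′ on the strand of the gene, with the matching letters in capitals, to show where the full site and the short sites stand in the peptide genes and in Gad2.
Sst full site, chr16:23890874-23890903, minus strand: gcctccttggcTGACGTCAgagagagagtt
Vip short site, chr10:5639127-5639156, plus strand: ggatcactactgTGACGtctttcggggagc
Cck short site, chr9:121495724-121495753, minus strand: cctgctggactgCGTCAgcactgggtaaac
Tac1 distal short site, chr6:7554852-7554881, plus strand: tccctaaaattgCGTCAtttcgaacacaat
Tac1 proximal short site, chr6:7555006-7555035, plus strand: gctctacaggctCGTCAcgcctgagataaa
Gad2 short site, chr2:22622282-22622311, plus strand: ccatttcccttcCGTCActctctcatctcc

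Of the 8 genes, Sst held the full site, which began 48 bases before the start; 2.03% of the 27025 genes of the table held it in a promoter. A short site was found in 5 of the 8 genes and in 23.0% of all genes. It began 79 bases before the start in Vip, 47 in Cck, 197 and 43 in Tac1 and 33 in Gad2. Npy, Gad1 and Pvalb held neither in the windows searched. The starts used are those of RefSeq, and for Sst, Tac1, Gad1 and Gad2 they lie inside the gene positions given above. For Gad1 the window was chr2:70561879-70562178, so the bases before the outer end of the gene were not searched. A match of letters is a description of the sequence and was not tied to the levels.

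APP/PS1 and WT were compared to ask whether the genotype changed the level of these transcripts in the fraction. None of the 10 genes passed the test. With edgeR's quasi-likelihood test and Benjamini-Hochberg adjustment over all genes, 0 of 10 had an adjusted p under 0.05, where 3.47% of all genes tested were called, and 0 of 10 had an unadjusted p under 0.05, where 17.2% of all genes did. DESeq2 and limma-voom also called 0 of 10. Fitted log2 fold changes were below 0 for 9 of 10 genes, with a median of −0.16 beside −0.07 for all genes tested. The groups of libraries overlapped for all 10 genes, while 14.9% of all genes had groups that did not overlap.

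The intervals of these differences were wide. Cck had the lowest log2 fold change, −0.45 (standard error 0.45, 95% interval −1.44 to 0.54, adjusted p = 0.672 from edgeR), and Gad2 the most precise, −0.39 (standard error 0.25, interval −0.93 to 0.15, adjusted p = 0.469 from edgeR). For Sst the log2 fold change was −0.22 (interval −1.14 to 0.70), for Npy −0.30 (−1.28 to 0.68), for Gad1 −0.20 (−1.08 to 0.67) and for Penk −0.12 (−0.87 to 0.63). Vip, Tac1, Crh and Pvalb had log2 fold changes of −0.07, −0.08, −0.07 and 0.01, and the interval of Pvalb ran from −1.48 to 1.51. Log2 fold changes of both −1 and 1 lay inside the interval for Pvalb and for Tac1.

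Without the third WT library the direction turned. The fitted log2 fold change of APP/PS1 against WT was then above 0 for all 10 genes, with a median of 0.62 beside −0.06 for all genes tested. Tac1 was 1.17 higher on the log2 scale (interval 0.38 to 1.95), Pvalb 1.48 (0.12 to 2.83), Npy 0.73 (0.19 to 1.28), Sst 0.69 (0.13 to 1.26), Gad1 0.65 (0.13 to 1.16) and Cck 0.60 (0.08 to 1.12). These 6 genes had an unadjusted p under 0.05, where 10.7% of all genes were higher with such a p. Their adjusted p-values from edgeR were 0.0935 to 0.197, so that 0 of 10 were called. Gad2 did not follow, with a log2 fold change of 0.00 (−0.40 to 0.41). The third WT library was set apart because it was the highest for each of the 10 genes. Leaving it out lowers every WT mean, so an upward shift was fixed in advance and the p-values here are no support for a difference. With 2 WT libraries left, this comparison also rests on a narrow base. The pan-neuronal markers moved with it, from 1709 and 2035 CPM in these WT libraries to 2240 to 2648 CPM in APP/PS1.

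**Figure D3:**
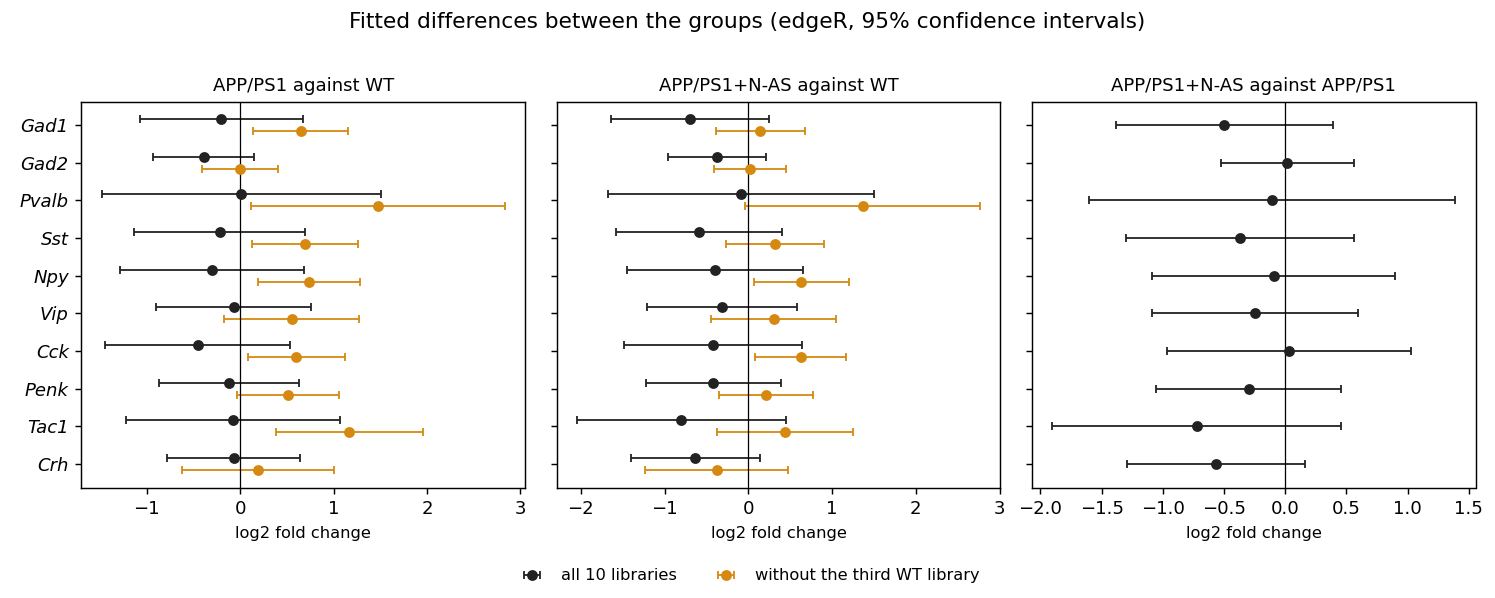
Fitted log2 fold changes (x axis) of each gene in the 3 comparisons, with 95% confidence intervals, from all 10 libraries (black) and without the third WT library (orange). For APP/PS1 against WT, 9 of 10 black points lie below 0 and all 10 orange points lie at or above it, from 0.00 for Gad2 to 1.48 for Pvalb.

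APP/PS1+N-AS and APP/PS1 were compared to ask whether N-AS changed these transcripts in mice of the same genotype. None passed the test: 0 of 10 genes had an adjusted p under 0.05 from edgeR, where 0.0% of all genes were called, and 0 of 10 had an unadjusted p under 0.05, where 8.83% of all genes did. DESeq2 and limma-voom called 0 of 10 as well. The fitted log2 fold change was below 0 for 8 of 10 genes, with a median of −0.27 beside −0.01 for all genes. This median ranged from −0.13, with 6 of 10 below 0, without the last APP/PS1 library to −0.51, with 9 of 10 below 0, without the third APP/PS1+N-AS library. Tac1 was −0.72 (interval −1.91 to 0.46), Crh −0.56 (−1.29 to 0.16), Gad1 −0.50 (−1.38 to 0.39), Sst −0.37 (−1.30 to 0.56), Penk −0.30 (−1.06 to 0.46) and Vip −0.24 (−1.09 to 0.60). Npy, Pvalb, Gad2 and Cck were near 0, at −0.09, −0.10, 0.02 and 0.03, with intervals of at least 0.53 to each side. The libraries of the 2 groups overlapped for all 10 genes, while 12.7% of all genes did not overlap. The third APP/PS1+N-AS library had few Xist reads, 29, where the 4 APP/PS1 libraries had 5253 to 11188; the part of this in the differences was not tested.

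Between APP/PS1+N-AS and WT 0 of the 10 genes were called as well, where 0.187% of all genes were called, and 0 of 10 had an unadjusted p under 0.05, where 6.73% of all genes did. This comparison uses the same APP/PS1+N-AS and WT libraries as the comparisons above. All 10 fitted log2 fold changes were below 0, with a median of −0.42 beside −0.04 for all genes, from −0.09 for Pvalb to −0.80 for Tac1 (interval −2.05 to 0.45). The groups overlapped for all 10 genes, while 8.81% of all genes did not. Without the third WT library 9 of 10 were above 0, with a median of 0.31 beside −0.02 for all genes. Here too the upward shift was fixed by leaving out the library that was highest for all 10 genes. Npy was 0.63 (0.07 to 1.20) and Cck 0.63 (0.08 to 1.17), both with an unadjusted p under 0.05, as 5.28% of all genes had in this direction, and adjusted p-values of 0.368 and 0.358 from edgeR. Crh stayed below 0 there, at −0.38 (−1.23 to 0.48).

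Because the pan-neuronal markers moved with these genes, each level was also expressed per 1000 CPM of the summed pan-neuronal markers. Snap25 made up 39.1% of this sum over all libraries. On this scale the third WT library was the highest for Cck alone, at 16.1, and for the other 9 genes at least 1 other library was higher. Per 1000 CPM of the glutamatergic markers, by contrast, it was still the highest for 9 of the 10 genes, all except Crh. Camk2a made up 47.9% of the glutamatergic sum over all libraries. Sst per 1000 pan-neuronal CPM was 7.51, 6.57 and 8.28 in WT and 6.20, 7.35, 9.30 and 11.1 in APP/PS1 libraries. In APP/PS1+N-AS libraries it was 6.54, 5.66 and 6.24. Gad1 was 24.7, 22.0 and 25.9 in WT, 22.2, 23.8, 30.6 and 32.9 in APP/PS1, and 15.9, 18.4 and 19.6 in APP/PS1+N-AS libraries, where all 3 APP/PS1+N-AS libraries lay below the other 7, as did 0.128% of all genes tested. Per 1000 CPM of the glutamatergic markers 0 of the 10 genes had this order, where 0.288% of all genes did, and Gad1 in the second APP/PS1+N-AS library was above the 14.1 of the first WT library. Gad2 was 78.1, 60.5 and 43.4 in WT, 41.1, 46.2, 53.8 and 64.6 in APP/PS1, and 56.1, 54.8 and 39.2 in APP/PS1+N-AS libraries, without such an order. Penk in the third APP/PS1+N-AS library was 17.6, where the other 9 libraries had 29.8 to 46.6.

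**Figure D4:**
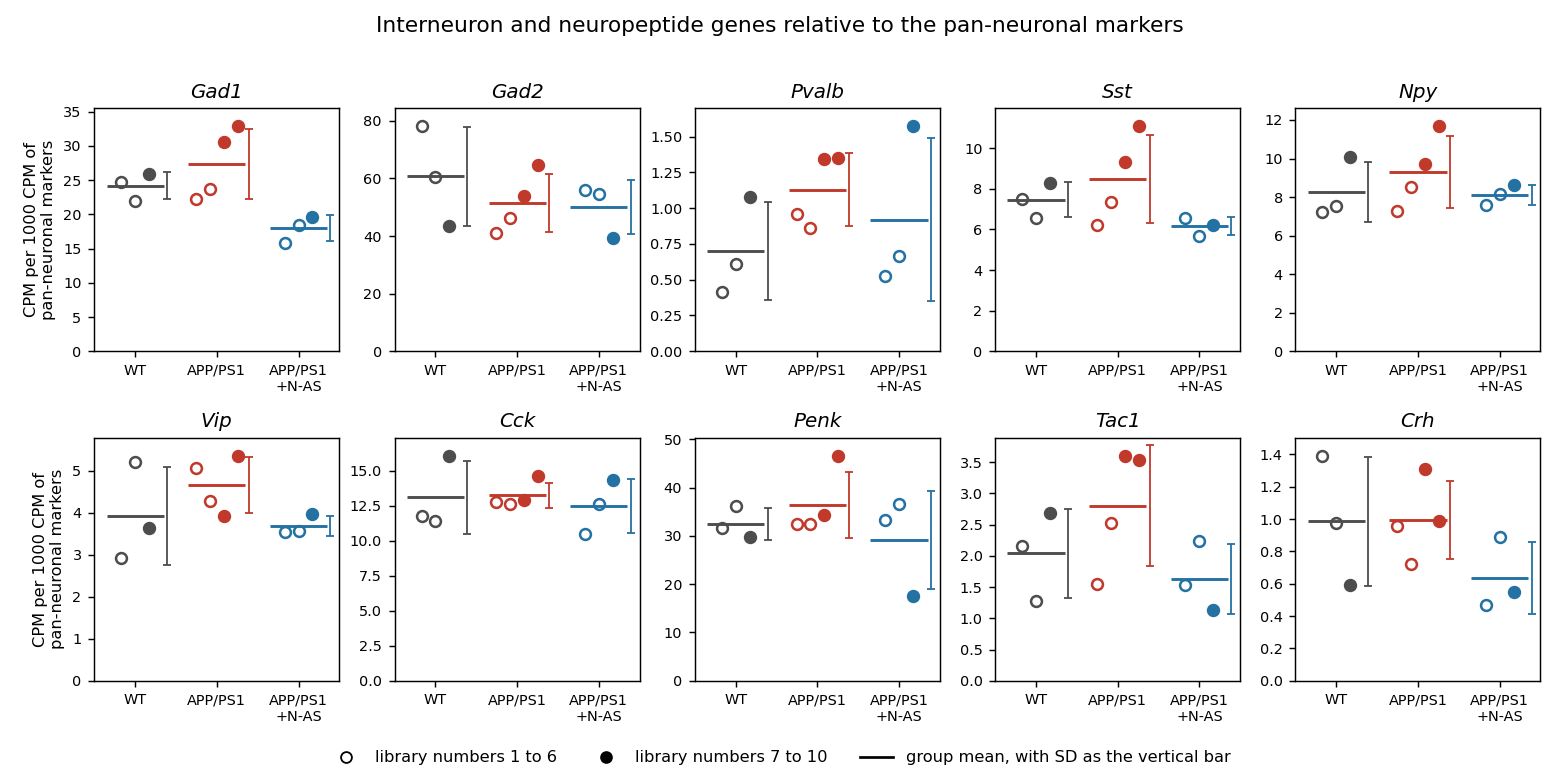
CPM of each gene per 1000 CPM of the 12 pan-neuronal markers together (y axis) in each library, by group; points are libraries, open for library numbers 1 to 6 and filled for 7 to 10, horizontal lines are group means and vertical bars the SD. The third WT library is the highest for Cck alone (16.1), and Gad1 lies at 15.9 to 19.6 in the APP/PS1+N-AS libraries, below the other 7 on this scale but not per glutamatergic CPM.

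When edgeR's library sizes were set by these markers, 0 of 10 genes were called in each comparison. The fitted log2 fold change of APP/PS1 against WT was then above 0 for 9 of 10 genes, with a median of 0.17, and that of APP/PS1+N-AS against APP/PS1 was below 0 for all 10, with a median of −0.33. For Gad1 the latter was −0.61 (interval −1.24 to 0.03, adjusted p = 1.0 from edgeR). The direction in APP/PS1 against WT thus turned with this scaling, except for Gad2, which stayed below 0, and Pvalb, which was above 0 before. Other scalings did not do so for most genes. With glutamatergic library sizes 7 of 10 were below 0, with a median of −0.06, with total counts 10 of 10 and with upper quartiles 9 of 10. The directions in APP/PS1+N-AS against APP/PS1 turned for Gad2 and Cck with pan-neuronal library sizes.

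The labels number the libraries 1 to 10. Numbers 1 to 6 are the first 2 replicates of each group and numbers 7 to 10 the third WT, the last 2 APP/PS1 and the third APP/PS1+N-AS library; what the numbers stand for is not given in the sources used here. In numbers 7 to 10, all 10 genes were higher on average. This split was looked at with the values known, so it is a description without a test. The sets of library numbers did not overlap for Sst, Npy, Gad1 and Pvalb, nor, in this direction, for 3.26% of all genes. Sst was 12.8 to 17.6 CPM in numbers 1 to 6 and 20.2 to 46.6 CPM in numbers 7 to 10, and Gad1 was 37.8 to 58.1 CPM and 63.5 to 146 CPM.

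Within the sets, the differences of both groups from WT mostly ran in opposite directions. In numbers 1 to 6, with 2 libraries in each group, APP/PS1 was above WT for 8 of 10 genes, all but Gad2 and Crh, with a median log2 difference of 0.46, and APP/PS1+N-AS above WT for 8 of 10, with a median of 0.26. In numbers 7 to 10, with 1 WT, 2 APP/PS1 and 1 APP/PS1+N-AS library, APP/PS1 was below WT for all 10 genes, with a median of −0.86, and APP/PS1+N-AS below WT for all 10, with a median of −0.99. The WT library there was the third, the highest of all libraries for each of the 10 genes. The directions against WT in numbers 7 to 10 were therefore fixed in advance and are no support for a difference. The pan-neuronal markers moved likewise, by 0.40 and −1.13 for APP/PS1 against WT. Between APP/PS1+N-AS and APP/PS1 the median was −0.24 in numbers 1 to 6, with 8 of 10 genes lower, and −0.23 in numbers 7 to 10, with 6 of 10 lower. Gad1, Sst, Tac1 and Crh were lower in APP/PS1+N-AS in both sets, by 0.51 and 0.28 on the log2 scale for Gad1. The other genes changed direction between the sets. Npy, Vip, Cck and Pvalb went from lower to higher, at −0.24 and 0.47 for Cck and −0.66 and 0.62 for Pvalb. Penk and Gad2 went from higher to lower. The share of all genes lower in both sets was not determined. None of these within-set values was tested, since numbers 7 to 10 hold 1 library each of WT and APP/PS1+N-AS.

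**Figure D5:**
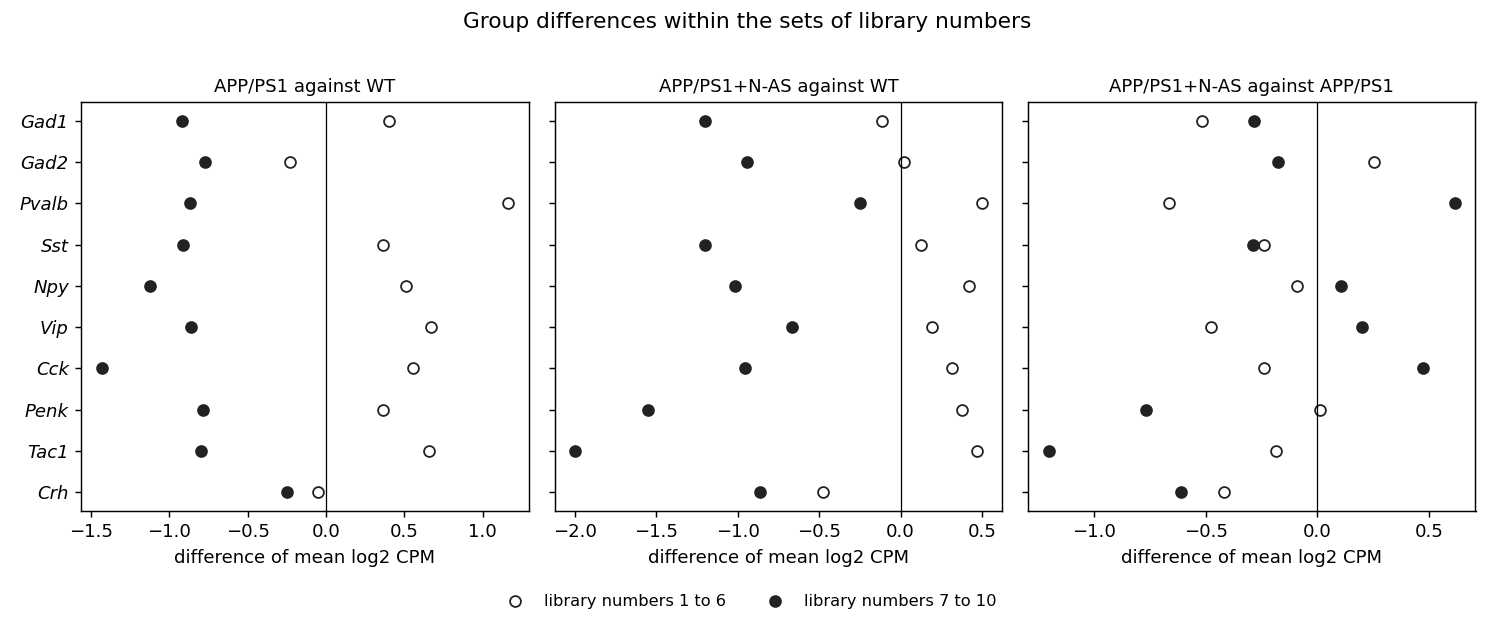
Difference of the mean log2 CPM between groups (x axis) for each gene within library numbers 1 to 6 (open points) and 7 to 10 (filled points), 1 panel for each comparison. In numbers 7 to 10 all 10 genes lie below 0 in both comparisons with WT, while 8 of 10 lie above it in numbers 1 to 6. The WT library in numbers 7 to 10 is the third, the highest for all 10 genes, so the directions against WT there were fixed in advance.

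Other genes of the GABA and peptide systems were followed as lists. Of 7 genes of GABA transport and breakdown, 17 interneuron transcription factors, 19 further subtype markers, 13 other peptide precursors, 11 genes of prohormone processing and 15 GABA receptor subunits tested, 0 were called in any of the 3 comparisons. In APP/PS1 against WT their median log2 fold changes were −0.27, −0.19, −0.29, −0.21, −0.35 and −0.47, beside −0.07 for all genes. Without the third WT library the medians were −0.02, −0.02, −0.0045, 0.14, 0.15 and 0.11. With all libraries 1 of 7, 1 of 17, 1 of 19, 0 of 13, 0 of 11 and 1 of 15 genes had an unadjusted p under 0.05, against 17.2% of all genes. Among these, Prox1, a transcription factor of interneurons from the caudal ganglionic eminence, was at −0.72 (standard error 0.28), Syt2, a vesicle calcium sensor of parvalbumin terminals, at −0.58 (0.19) and the extrasynaptic subunit Gabrd at −0.91 (0.34), with edgeR adjusted p-values of 0.215, 0.138 and 0.199. Without the third WT library Prox1 was called, at −0.98 (adjusted p = 0.0483 from edgeR), as was Slc38a1, a transporter of glutamine, at 0.56 (adjusted p = 0.0441 from edgeR), where 4.83% of all genes were called. Of the 18 subtype markers tested in that fit 9 were below 0, and the lowest adjusted p was that of Calb1, at 1.16 (adjusted p = 0.0549 from edgeR). Lhx6, which specifies somatostatin and parvalbumin interneurons, had a log2 fold change of −0.34 (0.16) in APP/PS1 against WT and 0.41 (0.16) in APP/PS1+N-AS against APP/PS1, with adjusted p-values of 0.308 and 0.525 from edgeR.

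The receptors through which the 7 peptides act included 10 of 20 tested with an unadjusted p under 0.05 in APP/PS1 against WT, all of these at lower levels in APP/PS1, where 17.2% of all genes had such a p in either direction. Of the 22 receptor genes 0 were called, with a median log2 fold change of −0.58 over the 20. Cckbr, the main cholecystokinin receptor of the brain, was at −1.14 (standard error 0.30, adjusted p = 0.0669 from edgeR), Npy1r at −0.59 (0.17, adjusted p = 0.0824 from edgeR) and Adcyap1r1, a receptor of PACAP that also binds VIP, at −0.41 (0.13, adjusted p = 0.132 from edgeR). In APP/PS1+N-AS against APP/PS1 the median of the receptors was 0.26, and Vipr2 was at 0.74 (0.21, adjusted p = 0.494 from edgeR). Without the third WT library the median of APP/PS1 against WT was −0.44, 7 of 20 had an unadjusted p under 0.05, where 21.5% of all genes did, and Npy1r was called, at −0.71 (adjusted p = 0.0284 from edgeR). That library was less high for the receptors, with a median log2 difference of 0.32 to the other WT libraries.

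Genes were called in the lists of other cell types. Of 14 microglia markers 12 were called higher in APP/PS1 than in WT, with a median log2 fold change of 1.49, among them Tyrobp at 3.40, C1qc at 2.27 and C1qb at 2.39. Of 10 astrocyte markers Gfap was called at 5.65 and S100b at 1.21, while 5 of the 10 were below 0 and the median was −0.05. Of 10 oligodendrocyte markers Opalin was called at −2.27, Cnp at −1.68 and Ermn at −1.56. Of 12 pan-neuronal and 14 glutamatergic markers 0 were called, with medians of −0.35 and −0.25, and of 9 striatal projection neuron markers 0 were called, with a median of −0.32. Without the third WT library these 3 medians were 0.36, −0.10 and 0.11, with 0 called; 13 microglia markers were then called higher and 8 oligodendrocyte markers lower, and Gfap was the astrocyte marker called. CPM are relative to a library size, here scaled by TMM, so a rise in the RNA of a cell type can lower the levels of others. The part of this in the levels of the 10 genes was not tested.

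The genes whose log2 CPM was most like that of each gene over the 10 libraries were found by Pearson's r. As a description over 10 libraries that share depth and the third WT library, Cck was closest to Nap1l2 (r = 0.994, and 0.982 without the third WT library), Npy to Ttl (0.989, 0.986) with Tubb3, the neuronal tubulin, next (0.988, 0.970), and Sst to Rit2 (0.979, 0.954). Gad1 was closest to Ywhae (0.977, 0.943), Pvalb to Gmps (0.983, 0.979), Gad2 to Brk1 (0.966, 0.899), Tac1 to Bphl (0.968, 0.945), Vip to Gaa (0.952, 0.922) and Crh to Triqk (0.918, 0.898). Penk was closest to Tmsb10 (0.970, 0.933), and Ppp1r1b was also among its 3 closest (0.952, 0.949), the DARPP-32 gene of striatal projection neurons.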

How the data were processed

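Reads from 10 stranded, ribosome-depleted libraries were aligned by the authors with TopHat (mm10, per the labels), and the deposited values are raw read counts per gene symbol; the annotation and versions are not given in the sources used here. The labels also name edgeR. Lines sharing a symbol (103 lines, 43 symbols) were summed. Replicates differed by 12.2 to 126 times sampling noise (chi-square per degree of freedom). Whether libraries of a group came from separate preparations is not stated, so p-values measure the spread between these libraries.

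Counts were filtered with filterByExpr, scaled by TMM and tested in 1 model of the 3 groups without covariates (edgeR 4.0.16, R 4.3.3; estimateDisp, glmQLFit, glmQLFTest), with Benjamini-Hochberg adjustment over 18727 genes and a threshold of 0.05. The standard error is the log2 fold change divided by the square root of F. Log2 CPM used a prior count of 2. DESeq2 1.42.0 and limma 3.58.1 served as alternatives. The scripts were tested on simulated data. Positions and merged exon lengths are from GENCODE M21 (GRCm38), promoters from RefSeq. PCR reads without molecular identifiers are not independent molecules, so read numbers give counting error only.

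For APP/PS1+N-AS and APP/PS1 the same-numbered libraries, numbered by the labels, correlated after removal of group means with r from 0.14 to 0.31; the replicate block changed no call among the 10 genes. The members and gene lists were chosen with earlier results of these data known. From each list the genes past the threshold were eligible to be named, or the 3 with the lowest p where none or more than 4 passed, and for each member the 3 genes most like it by r. Library sizes from glutamatergic markers and pan-neuronal library sizes without the third WT library were added after the data had been seen. FPKM values used in the study were not used here. A result for 1 gene of the GABA lists is not reported here.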

Additional observations from a re-analysis of the deposited data

How the results depend on the processing

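The count of the 10 genes called was 0 in all 3 comparisons under each alternative run: DESeq2, limma-voom on quantile-normalized values, scaling by total counts, scaling by upper quartiles, library sizes set by pan-neuronal or glutamatergic markers, no filter, the replicate block, a minimum of 10 counts per library, the library number set as a covariate, a fit of only the 2 groups compared, and each library left out in turn. Over all genes, calls ranged from 32 to 2298 for APP/PS1 against WT (649 as reported), from 0 to 79 for APP/PS1+N-AS against APP/PS1 (0 as reported) and from 1 to 310 for APP/PS1+N-AS against WT (35 as reported), with 1362, 79 and 187 by DESeq2. Same-numbered libraries correlated with r from −0.49 to 0.44 for APP/PS1 and WT and from −0.14 to 0.35 for APP/PS1+N-AS and WT, so there the libraries share only a number; with the replicate block 326, 0 and 5 genes were called, and 0 of the 10. Directions turned in 80 of 557 alternative values, of which the adjusted p was under 0.05 in 0; where no value names it, the cause was not tested. Pan-neuronal library sizes without the third WT library moved the median of all genes to −0.47 for APP/PS1 against WT (−0.07 as reported) and to −0.49 for APP/PS1+N-AS against WT (−0.04 as reported), and turned the calls of the former from 500 higher and 149 lower to 138 higher and 2160 lower. The minimum of 10 counts left 9 of the 10 genes, without Pvalb, whose 6 to 126 reads limit its precision.

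For APP/PS1 against WT, values of the log2 fold change that turned were as follows. With library sizes from pan-neuronal markers it was 0.19 for Sst, 0.16 for Npy, 0.25 for Vip, 0.015 for Cck, 0.16 for Penk, 0.45 for Tac1, 0.18 for Gad1 and 0.047 for Crh, and with the third WT library also left out 0.28 for Sst, 0.33 for Npy, 0.18 for Vip, 0.19 for Cck, 0.10 for Penk, 0.74 for Tac1 and 0.23 for Gad1. With limma-voom it was 0.066 for Vip, 0.064 for Penk, 0.28 for Tac1 and 0.062 for Gad1, with glutamatergic markers 0.066 for Tac1 and 0.027 for Crh, and with total counts −0.0094 for Pvalb. Leaving out each library gave −0.51 to 0.69 for Sst, −0.64 to 0.73 for Npy, −0.42 to 0.55 for Vip, −0.79 to 0.60 for Cck, −0.41 to 0.51 for Penk, −0.48 to 1.17 for Tac1, −0.50 to 0.65 for Gad1, −0.57 to 0.0025 for Gad2, −0.39 to 1.48 for Pvalb and −0.23 to 0.19 for Crh, each highest value coming without the third WT library.

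For APP/PS1+N-AS against APP/PS1, Npy turned to 0.031 with the replicate block and 0.052 with the library number set. Cck turned to −0.044 with limma-voom, −0.086 with pan-neuronal markers, also without the third WT library (−0.086), −0.0036 with the replicate block and −0.061 with glutamatergic markers. Gad2 turned to −0.033 with total counts, −0.013 with upper quartiles, −0.041 with pan-neuronal markers, also without the third WT library (−0.041), and −0.10 with glutamatergic markers. Leaving out each library gave −0.31 to 0.073 for Npy, −0.27 to 0.21 for Cck, −0.051 to 0.18 for Gad2 and −0.99 to 0.23 for Pvalb.

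For APP/PS1+N-AS against WT, pan-neuronal markers without the third WT library gave 0.13 for Npy, 0.11 for Cck and 0.81 for Pvalb. Pvalb turned to 0.26 with limma-voom, 0.35 with pan-neuronal markers, 0.12 with the replicate block and 0.090 with the library number set. Leaving out each library gave −0.88 to 0.32 for Sst, −0.74 to 0.63 for Npy, −0.66 to 0.30 for Vip, −0.76 to 0.63 for Cck, −0.71 to 0.21 for Penk, −1.20 to 0.44 for Tac1, −0.99 to 0.14 for Gad1, −0.54 to 0.019 for Gad2 and −0.95 to 1.36 for Pvalb, each highest value coming without the third WT library.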
